A study of Mus musculus with 6 samples.

Results

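RNA sequencing counts were examined for 55 genes of the mitotic spindle and the kinetochore in regulatory T (Treg) cells differentiated with or without sorafenib (Sora), a multikinase inhibitor used against liver cancer. The genes were chosen by symbol from a list covering mitotic kinases, the spindle checkpoint, kinetochore proteins, spindle motors, condensin and cytokinesis, and all 55 were found among the 22939 genes of the count table. The 2 groups were 3 ctrl-Treg libraries and 3 Sora-Treg libraries, each cultured from naive CD4 T cells taken from spleen and lymph nodes of mice with a GFP reporter in the Foxp3 gene, on a C57BL/6J background. Both groups received anti-CD3 and anti-CD28 stimulation together with TGF-β1, anti-IFN-γ and anti-IL4, both were sorted for GFP, and they differed in Sora. The age of the reporter mice, and the Sora concentration and culture time of the sequenced cells, are not given in the sources used here. The cells are therefore induced Treg cells made in culture and selected by the reporter, and not Treg cells taken from a tissue.

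Activated T cells divide many times in culture, and each division requires that the copied chromosomes are compacted, attached to a microtubule spindle and separated. The kinetochore is the protein assembly on each centromere that holds the microtubules, the spindle checkpoint delays separation until every kinetochore is attached, and the anaphase-promoting complex then releases separase, which opens the cohesin rings between sister chromatids. Most of these genes are transcribed late in the cell cycle under the MuvB complex together with MYBL2 and FOXM1. These factors act at promoters carrying a cell cycle homology region (CHR) and CCAAT boxes, the binding site of NF-Y.

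Total counts per library ranged from 30727686 to 37717324, and 13463 genes passed the filter on low counts and were tested. Of the Treg and CD4 T cell markers, all 6 were present, with a summed level of 3603 to 3655 CPM (counts per 1000000 of a library total scaled by TMM, the trimmed mean of M values) in ctrl-Treg and 6298 to 6428 CPM in Sora-Treg cells. Most of that rise was in Il2ra (1933 and 3793 CPM in the group means) and Ctla4 (383 and 1107 CPM). Cd3e was higher as well, with means of 230 and 348 CPM. Foxp3 had means of 258 and 272 CPM, Ikzf2 of 147 and 149 CPM and Cd4 of 679 and 708 CPM. Markers of natural killer cells and red cells summed to at most 0.156 CPM in any library, the 2 CD8 T cell markers to between 12.6 and 15.1 CPM, and the 5 B cell markers to between 9.70 and 10.7 CPM in ctrl-Treg and between 6.08 and 7.67 CPM in Sora-Treg cells. The 7 myeloid markers summed to 24.9 to 93.4 CPM in ctrl-Treg and to 20.8 to 42.9 CPM in Sora-Treg cells. The part of these B cell and myeloid levels in the results was not tested.

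The mitotic genes were lower in Sora-Treg cells almost without exception. Together they held 0.395%, 0.387% and 0.397% of all counts in ctrl-Treg libraries 1 to 3, and 0.233%, 0.236% and 0.235% in Sora-Treg libraries 1 to 3. Of the 55, 54 were called lower at an edgeR adjusted p under 0.05, where 29.9% of all tested genes were called lower, and 0 were called higher, where 29.7% of all tested genes were. The remaining gene was Pttg1. The median log2 fold change (Sora-Treg over ctrl-Treg) of the 55 genes was -0.70, against -0.0035 over all 13463 tested genes, and 9.53% of the tested genes lay below the members' median. In 53 of the 55 genes all 3 Sora-Treg libraries lay below all 3 ctrl-Treg libraries, which was so in 32.0% of tested genes. Scaling libraries by their totals alone, without TMM, moved the median of all tested genes to -0.12 and that of the mitotic genes to -0.81, a shift that this scaling gives to all genes alike.

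The falls were close in size and mostly less than 2-fold. Of the 55 genes, 46 had a log2 fold change between -1 and -0.5, 6 lay between -0.5 and 0, and 2 lay below -1. Those 2, the kinetochore gene Cenpm and the kinesin gene Kif18a, were the members that passed both the adjusted p and the 2-fold limit that the methods of the study use, which 4.97% of tested genes passed in the same direction. With libraries scaled by their totals alone 8 members passed, and on log2(FPKM + 1), where FPKM is CPM on the unscaled total divided by gene length in kilobases, 1 passed. The summed level of the 55 genes was 3784, 3730 and 3820 CPM in ctrl-Treg and 2417, 2458 and 2444 CPM in Sora-Treg cells, a fall of 35.4% in the mean. Here and below, errors after a log2 fold change are standard errors (SE) from the edgeR fit, and adjusted p-values are over all tested genes. The size of the change had little relation to the level of the gene (Spearman rho of 0.15 between mean ctrl-Treg FPKM and log2 fold change over 55 genes in the same libraries, a description only). In RNA from a bulk population, fewer dividing cells and less mitotic RNA per dividing cell cannot be told apart.

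**Figure D1:**
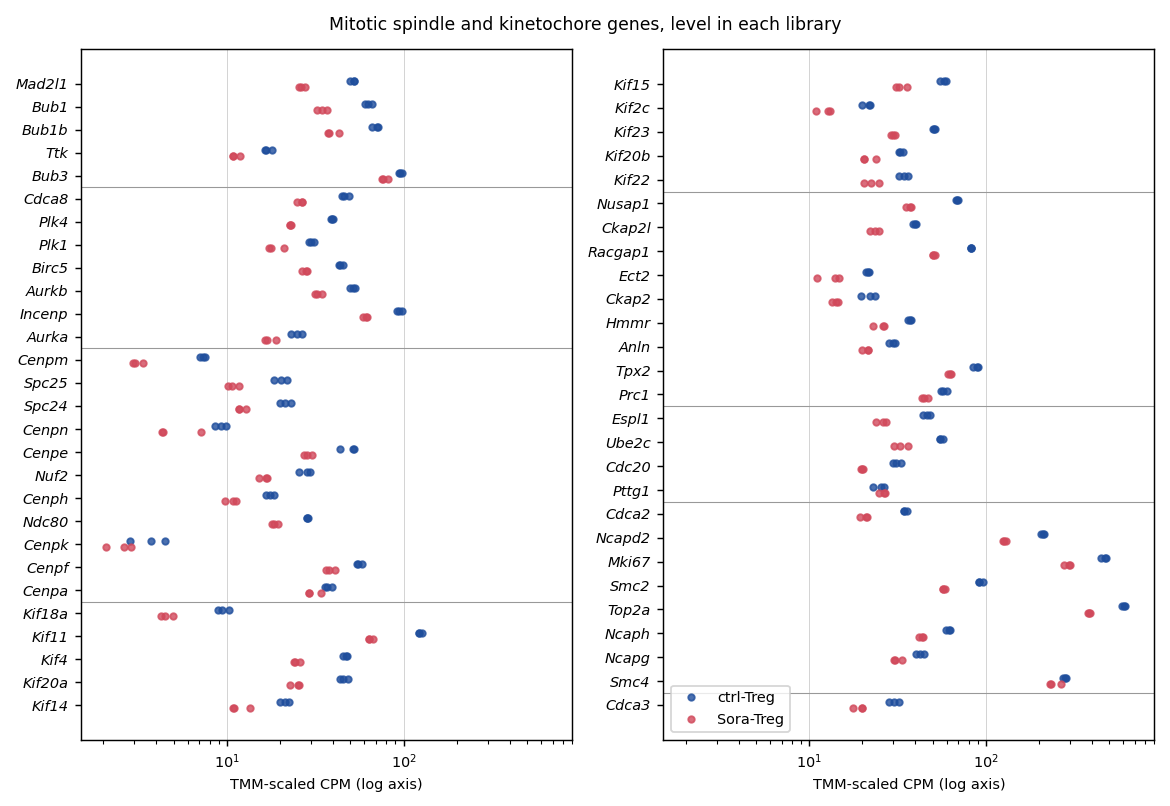
Level of each of the 55 genes in each library, in TMM-scaled CPM on a log axis. Each point is 1 library, ctrl-Treg in blue and Sora-Treg in red, and the horizontal lines separate the roles. The red points lie left of the blue points in 53 rows, and the groups overlap in the rows of Cenpk and Pttg1.

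The sequences upstream of these genes are shown because the promoter elements named above are short and can be read directly. RefSeq windows on GRCm38.p6, from 250 bases before to 50 after the start, matched 48 of the 55 symbols. In 40 of these windows, bases just after the start were found in a GENCODE transcript of the gene. The other starts were not borne out in this way. For each gene the most upstream listed start was used, and the start in use in these cells was not measured. The following lines give the 150 bases before the start, 5′ to 3′ on the gene's strand, for the gene with the largest change of each role. Cdca2, the gene so chosen for condensin and mitotic chromosome genes, had no window, and the next largest change was not taken instead. Top2a, Ube2c and Pttg1 were added after their values had been seen. Capitals mark a CHR, a CCAAT box or an E2F site, each on either strand. The CHR was searched as TTTGAA, together with its known variant TTCGAA. The CCAAT box was searched by the letters of its name, which read ATTGG from the other strand. The E2F site was searched as TTTGGCGC, TTTCGCGC or TTTCCCGC.
Cenpm (chr15:82244337-82244486, minus strand): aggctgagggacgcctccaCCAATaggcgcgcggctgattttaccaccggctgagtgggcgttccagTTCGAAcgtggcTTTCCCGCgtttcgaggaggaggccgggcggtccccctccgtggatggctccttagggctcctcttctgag
Kif18a (chr2:109280588-109280737, plus strand): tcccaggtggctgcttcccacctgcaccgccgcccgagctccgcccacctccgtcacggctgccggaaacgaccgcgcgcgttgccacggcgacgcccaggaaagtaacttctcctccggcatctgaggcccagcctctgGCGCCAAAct
Mad2l1 (chr6:66535071-66535220, plus strand): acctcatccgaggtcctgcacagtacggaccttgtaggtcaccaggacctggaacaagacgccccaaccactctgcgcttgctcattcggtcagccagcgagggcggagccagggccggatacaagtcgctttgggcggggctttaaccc
Nusap1 (chr2:119618148-119618297, plus strand): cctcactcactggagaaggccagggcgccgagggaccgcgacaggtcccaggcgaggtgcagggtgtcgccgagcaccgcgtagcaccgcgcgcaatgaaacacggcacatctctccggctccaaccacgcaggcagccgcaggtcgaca
Espl1 (chr15:102296143-102296292, plus strand): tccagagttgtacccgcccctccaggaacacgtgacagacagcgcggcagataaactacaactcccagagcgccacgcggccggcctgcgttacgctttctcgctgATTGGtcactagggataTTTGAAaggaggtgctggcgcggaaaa
Cdca8 (chr4:124936918-124937067, minus strand): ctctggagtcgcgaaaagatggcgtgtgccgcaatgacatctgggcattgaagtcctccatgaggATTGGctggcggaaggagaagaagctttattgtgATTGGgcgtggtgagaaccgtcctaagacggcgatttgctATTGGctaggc
Cdca3 (chr6:124830026-124830175, plus strand): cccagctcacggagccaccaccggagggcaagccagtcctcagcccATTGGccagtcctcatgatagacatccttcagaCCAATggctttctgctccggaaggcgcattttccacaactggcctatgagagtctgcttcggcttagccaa
Top2a (chr11:99024190-99024339, minus strand): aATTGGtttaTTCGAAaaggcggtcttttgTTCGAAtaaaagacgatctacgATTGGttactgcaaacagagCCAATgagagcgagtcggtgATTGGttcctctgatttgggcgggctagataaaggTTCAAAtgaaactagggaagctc
Ube2c (chr2:164769779-164769928, plus strand): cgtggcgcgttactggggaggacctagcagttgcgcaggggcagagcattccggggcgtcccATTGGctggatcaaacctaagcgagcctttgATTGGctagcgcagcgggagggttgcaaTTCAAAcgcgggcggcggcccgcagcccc
Pttg1 (chr11:43425982-43426131, minus strand): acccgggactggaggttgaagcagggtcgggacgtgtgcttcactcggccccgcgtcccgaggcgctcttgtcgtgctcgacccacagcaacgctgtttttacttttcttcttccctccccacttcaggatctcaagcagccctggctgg

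TTCGAA reads the same on both strands and was counted once. Top2a carried 3 CHR and 4 CCAAT boxes in these 150 bases, more than any other printed gene. Ube2c carried 2 CCAAT boxes and a CHR, and Espl1 carried 1 of each, with the CCAAT box farther from the start. Cenpm held all 3 kinds of element, and the printed bases of Cdca8 and Cdca3 held CCAAT boxes alone. Both genes also had a CHR after the start, outside the printed bases, beginning at base 14 in Cdca8 and base 31 in Cdca3. The printed bases of Mad2l1, Nusap1 and Pttg1 held none of these letters, and those of Kif18a held an E2F site alone. A match is a run of letters and not a measured binding site, and the lack of one says nothing about a factor.

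Over the whole windows, a CHR was present in 37 of the 48 members (77.1%), in 8 of 40 genes of a DNA replication list (20%) and in 14.2% of the 10701 tested genes with a window, or 19.5% of all 27025 windows. A CCAAT box was present in 35 of 48 members (72.9%), in 57.5% of the replication genes, in 39.1% of the tested genes and in 38% of all windows. Both together stood in 32 members (66.7%), against 12.5% of the replication genes, 6.23% of the tested genes and 7.73% of all windows. The E2F site was present in fewer members than replication genes, 5 of 48 (10.4%) and 32.5%, against 3.6% of the tested genes and 1.91% of all windows. The CHR of the members lay close to the start, with 41.7% of them carrying one in the 50 bases after it and 25% in the 50 bases before it, where the tested genes carried one in 1.88% and 1.94%. The CCAAT boxes of the members lay farther upstream. In the 50 bases before the start, 43.8% of the members carried one, against 32.5% of the replication genes and 12.3% of the tested genes. From 50 to 100 bases before it the shares were 31.2%, 30% and 15.7%, so members and replication genes were close there. Among the members, those with a CHR (n = 37) had a median log2 fold change of -0.69 and those without (n = 11) of -0.78. No test was made of any of these shares.

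**Figure D2:**
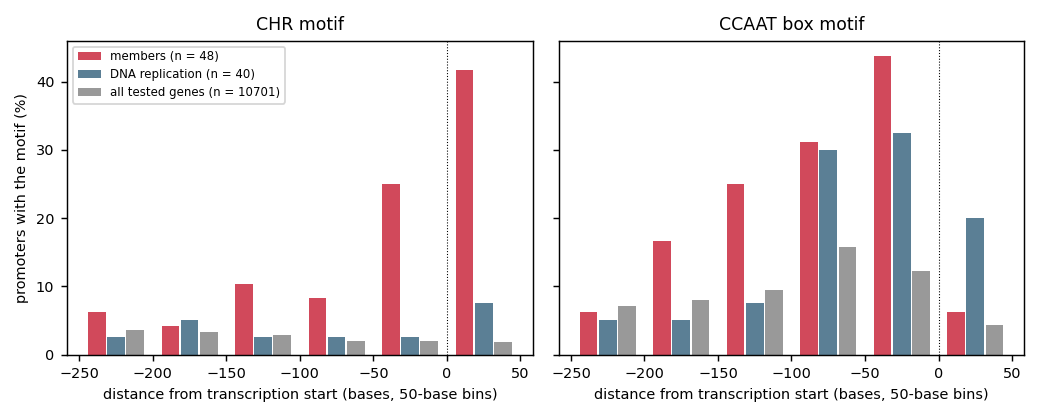
Share of promoter windows (%) with a CHR (left) or a CCAAT box (right) in each 50-base stretch from 250 bases before to 50 bases after the transcription start. Bars stand for 48 members (red), 40 DNA replication genes (blue) and 10701 tested genes (grey). The CHR bars of the members are tallest on either side of the start, and those of the other groups stay low throughout.

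The spindle checkpoint genes were lower in Sora-Treg cells, with Bub3 the least changed. All 5 measured members fell, with a median log2 fold change of -0.81. Mad2l1, whose product binds and holds back the anaphase activator CDC20, was at 52.3, 49.98 and 52.8 CPM in ctrl-Treg and at 26.3, 25.6 and 27.7 CPM in Sora-Treg libraries. Mad2l1 was lower in every Sora-Treg library than in any ctrl-Treg library, and the log2 fold change was -0.96 ± 0.05 (SE, adjusted p = 2.6e-13), so that the Sora-Treg level was 51.3% of the ctrl-Treg level. Bub1, a kinase that recruits the checkpoint to kinetochores, was at 60.2, 62.8 and 65.9 CPM in ctrl-Treg and at 37.02, 34.6 and 32.3 CPM in Sora-Treg libraries. The Bub1 values of the groups did not overlap, Sora-Treg being lower, and the log2 fold change was -0.86 ± 0.05 (SE, adjusted p = 2.46e-12). Bub1b, whose product BUBR1 is part of the same inhibitory complex, fell by 0.81 ± 0.05 and Ttk, the kinase MPS1 that starts checkpoint signalling, by 0.61 ± 0.08 on the log2 scale. Bub3, which carries BUB1 and BUBR1 to the kinetochore, was at 94.7, 95.7 and 98.5 CPM in ctrl-Treg and at 81.8, 76.4 and 75.8 CPM in Sora-Treg libraries, and its log2 fold change was -0.30 ± 0.04 (SE, adjusted p = 6.85e-07). The FPKM ratio of Bub3 to Bub1b was 2.33 ± 0.101 (SD, n = 3) in ctrl-Treg cells against 3.33 ± 0.355 in Sora-Treg cells, without overlap between the libraries. This ratio is a description computed after the unequal falls of Bub3 and Bub1b had been seen.

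The mitotic kinases and the chromosomal passenger complex fell together. All 7 measured members were lower, with log2 fold changes from -0.85 to -0.51 and a median of -0.67. Cdca8, which encodes the passenger subunit borealin, was at 45.97, 49.4 and 44.8 CPM in ctrl-Treg and at 26.5, 24.9 and 26.5 CPM in Sora-Treg libraries. For Cdca8 all 3 Sora-Treg libraries lay below the ctrl-Treg libraries, at a log2 fold change of -0.85 ± 0.06 (SE, adjusted p = 8.34e-12). Its exons overlap those of a gene on the other strand over 232 bases, and the strand setting of the counting is not given in the sources used here. Plk4, the kinase that starts centriole duplication, was at 39.96, 38.9 and 39.5 CPM in ctrl-Treg and at 23.2, 22.9 and 22.7 CPM in Sora-Treg libraries. No Sora-Treg library reached the Plk4 level of a ctrl-Treg library, and the log2 fold change was -0.78 ± 0.06 (SE, adjusted p = 2.99e-11). Plk1, which drives mitotic entry, centrosome maturation and cytokinesis, was at 30.1, 31.3 and 29.1 CPM in ctrl-Treg and at 20.98, 17.7 and 17.4 CPM in Sora-Treg libraries, with a log2 fold change of -0.70 ± 0.07 (SE, adjusted p = 2.65e-08). Aurkb, the catalytic subunit of the passenger complex that corrects faulty attachments, was at 49.6, 53 and 51.7 CPM in ctrl-Treg and at 34.8, 32.3 and 31.4 CPM in Sora-Treg libraries, with a log2 fold change of -0.65 ± 0.05 (SE, adjusted p = 2.71e-10). The other passenger subunits moved by a like amount, Birc5 (survivin) by -0.67 ± 0.05 and Incenp, the scaffold, by -0.64 ± 0.04. Aurka, the centrosome and spindle pole kinase, was at 24.8, 23.01 and 26.6 CPM in ctrl-Treg and at 16.4, 18.9 and 16.8 CPM in Sora-Treg libraries, the smallest change of the group at -0.51 ± 0.08 (SE, adjusted p = 4.6e-06). The FPKM ratio of Aurka to Aurkb was 0.467 ± 0.0412 (SD, n = 3) in ctrl-Treg cells against 0.515 ± 0.0546 in Sora-Treg cells, and its libraries overlapped.

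Kinetochore and centromere genes spanned the widest range, from a fall of more than 2-fold in Cenpm to a small one in Cenpa. All 11 measured members were lower, with a median log2 fold change of -0.78. Cenpm, a subunit of the constitutive centromere network, was at 7.36, 7.06 and 7.51 CPM in ctrl-Treg and at 2.93, 3.01 and 3.37 CPM in Sora-Treg libraries. Cenpm was lower in every Sora-Treg library than in any ctrl-Treg library, and the log2 fold change was -1.23 ± 0.14 (SE, adjusted p = 4.77e-08), a ctrl-Treg level 2.35 times the Sora-Treg level and the largest change of the 55 genes. Spc25 was at 20.2, 18.4 and 22 CPM in ctrl-Treg and at 10.2, 11.8 and 10.7 CPM in Sora-Treg libraries. The Spc25 values of the groups did not overlap, Sora-Treg being lower, and the log2 fold change was -0.89 ± 0.09 (SE, adjusted p = 7.52e-09). Spc25 belongs to the 4-subunit NDC80 complex that grips microtubule ends, with Spc24 (-0.83 ± 0.08), Nuf2 (-0.78 ± 0.07) and Ndc80. Ndc80 itself was at 28.6, 28.7 and 28.5 CPM in ctrl-Treg and at 19.4, 17.97 and 18.6 CPM in Sora-Treg libraries, with a log2 fold change of -0.62 ± 0.06 (SE, adjusted p = 2.31e-08). All 4 subunits of the complex were lower, and the fall was smallest in Ndc80.

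Of the other centromere genes, Cenpe, a kinesin that carries chromosomes to the spindle equator, fell by 0.78 ± 0.06 and Cenpf, a large protein of the outer kinetochore, by 0.54 ± 0.05 on the log2 scale. Cenph fell by 0.71 ± 0.09, and Cenpn, which reads the centromeric nucleosome, by 0.81 ± 0.15. Cenpn was at 8.53, 9.91 and 9.33 CPM in ctrl-Treg and at 4.31, 7.12 and 4.38 CPM in Sora-Treg libraries, and Sora-Treg 2 stood above the other two Sora-Treg libraries. Cenpa, the histone H3 variant that marks the centromere, was at 39.2, 35.7 and 36.7 CPM in ctrl-Treg and at 34.2, 29.1 and 29.3 CPM in Sora-Treg libraries. For Cenpa all 3 Sora-Treg libraries lay below the ctrl-Treg libraries, at a log2 fold change of -0.27 ± 0.06 (SE, adjusted p = 0.00078), the smallest of the group. Cenpk was measured with few counts and was at 4.44, 3.71 and 2.82 CPM in ctrl-Treg and at 2.63, 2.85 and 2.08 CPM in Sora-Treg libraries. The groups overlapped, since ctrl-Treg 3 lay below Sora-Treg 2, and its log2 fold change was -0.55 ± 0.20 (SE, adjusted p = 0.0227). The call on Cenpk was lost when any of 3 libraries was left out (ctrl-Treg 1, ctrl-Treg 2 or Sora-Treg 3), with log2 fold changes from -0.54 to -0.37, and its exons share 233 bases with Ppwd1 on the other strand.

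The kinesin motors had the lowest median of the roles. All 10 measured members were lower, with log2 fold changes from -1.06 to -0.61 and a median of -0.83. Kif18a, which dampens chromosome oscillation by capping microtubule plus ends, was at 8.91, 9.36 and 10.3 CPM in ctrl-Treg and at 4.48, 4.26 and 4.94 CPM in Sora-Treg libraries. No Sora-Treg library reached the Kif18a level of a ctrl-Treg library, and the log2 fold change was -1.06 ± 0.12 (SE, adjusted p = 5.9e-08). Kif11, the motor that pushes the spindle poles apart and the highest of the group per length (FPKM of 26.7 in ctrl-Treg cells), was at 122, 127 and 123 CPM in ctrl-Treg and at 63.99, 63.7 and 67.1 CPM in Sora-Treg libraries. Kif11 was lower in every Sora-Treg library than in any ctrl-Treg library, and the log2 fold change was -0.94 ± 0.04 (SE, adjusted p = 1.24e-15), and its Sora-Treg level was 52.3% of the ctrl-Treg level. Kif4, a chromokinesin, fell by 0.92 ± 0.05, and Kif20a, which brings the passenger complex to the midzone, by 0.91 ± 0.06 on the log2 scale, and the exons of both overlap a gene on the other strand. Kif14, which acts in cytokinesis, had a log2 fold change of -0.86 ± 0.09, Kif15, which supports spindle bipolarity beside KIF11, of -0.81 ± 0.05, and Kif2c, a microtubule depolymerase at the centromere, of -0.80 ± 0.08. Kif23, the motor subunit of centralspindlin, fell by 0.77 ± 0.05 and its partner Racgap1 by 0.70 ± 0.04. The FPKM ratio of Racgap1 to Kif23 was 1.83 ± 0.0254 (SD, n = 3) in ctrl-Treg cells against 1.93 ± 0.0805 in Sora-Treg cells. Kif20b and the chromokinesin Kif22 changed least in this group, each by -0.61 ± 0.07.

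Genes of spindle assembly and cytokinesis fell with the smallest median among roles of more than 1 gene. All 9 measured members were lower, and the median log2 fold change was -0.62. Nusap1, which bundles microtubules near chromatin, was at 69.8, 67.7 and 68.6 CPM in ctrl-Treg and at 35.3, 37.4 and 37.6 CPM in Sora-Treg libraries. The Nusap1 values of the groups did not overlap, Sora-Treg being lower, and the log2 fold change was -0.90 ± 0.05 (SE, adjusted p = 5.47e-14). Ckap2l, a spindle pole and midbody protein, was at 40.4, 39.8 and 38.9 CPM in ctrl-Treg and at 23.6, 24.96 and 22.3 CPM in Sora-Treg libraries. For Ckap2l all 3 Sora-Treg libraries lay below the ctrl-Treg libraries, at a log2 fold change of -0.75 ± 0.06 (SE, adjusted p = 1.61e-10). Ect2, the exchange factor that activates RHOA at the cleavage site, fell by 0.69 ± 0.09, Ckap2 by 0.62 ± 0.08 and Hmmr, a spindle protein, by 0.55 ± 0.06 on the log2 scale. Anln, a scaffold of the contractile ring, fell by 0.50 ± 0.06. Tpx2, which activates Aurora A on spindle microtubules, had a log2 fold change of -0.49 ± 0.04, close to that of Aurka. Prc1, the bundler of midzone microtubules, was at 57.5, 56.1 and 60.03 CPM in ctrl-Treg and at 47.1, 44.8 and 43.4 CPM in Sora-Treg libraries, the smallest change of the group at -0.36 ± 0.05 (SE, adjusted p = 6.73e-07).

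Anaphase genes held the exception. Of 4 measured members, 3 fell and Pttg1 was not called. Espl1, which encodes separase, was at 44.2, 48.2 and 46.5 CPM in ctrl-Treg and at 27.1, 26.1 and 23.98 CPM in Sora-Treg libraries. No Sora-Treg library reached the Espl1 level of a ctrl-Treg library, and the log2 fold change was -0.85 ± 0.06 (SE, adjusted p = 1.44e-11). Ube2c, the ubiquitin-conjugating enzyme of the anaphase-promoting complex, was at 57.2, 55.3 and 55.2 CPM in ctrl-Treg and at 30.4, 32.7 and 36.5 CPM in Sora-Treg libraries. Ube2c was lower in every Sora-Treg library than in any ctrl-Treg library, and the log2 fold change was -0.75 ± 0.06 (SE, adjusted p = 9.2e-11). Cdc20, the activator that the checkpoint restrains, was at 29.8, 32.9 and 31.02 CPM in ctrl-Treg and at 20.3, 20.04 and 19.8 CPM in Sora-Treg libraries, with a log2 fold change of -0.64 ± 0.06 (SE, adjusted p = 1.15e-08). Pttg1 encodes securin, the protein that keeps separase inactive until anaphase, and it was at 23.1, 25.4 and 26.5 CPM in ctrl-Treg and at 26.8, 26.6 and 24.9 CPM in Sora-Treg libraries. The groups overlapped, and the log2 fold change was 0.06 ± 0.07 (SE, adjusted p = 0.441), with a 95% confidence interval from -0.08 to 0.20. The intervals of the other 54 genes all ended below it, the highest upper end being that of Smc4 at -0.11. With libraries scaled by their totals alone the estimate was -0.05 and still not called. The FPKM ratio of Pttg1 to Espl1, the inhibitor to its target, was 1.31 ± 0.0657 (SD, n = 3) in ctrl-Treg cells against 2.47 ± 0.0579 in Sora-Treg cells. In every Sora-Treg library the ratio was at least 2.41 and in every ctrl-Treg library at most 1.39, a description computed after the values had been seen.

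Condensin and mitotic chromosome genes included Top2a, the highest member per length. All 8 measured members were lower, with a median log2 fold change of -0.67. Top2a, the topoisomerase that untangles sister chromatids (FPKM of 120 ± 2.51 in ctrl-Treg cells, SD, n = 3), was at 604, 591 and 614 CPM in ctrl-Treg and at 380, 383 and 387 CPM in Sora-Treg libraries. The Top2a values of the groups did not overlap, Sora-Treg being lower, and the log2 fold change was -0.65 ± 0.03 (SE, adjusted p = 8.06e-16). Mki67, which encodes the proliferation marker Ki-67 that coats mitotic chromosomes, was at 472, 446 and 479.7 CPM in ctrl-Treg and at 277, 295 and 299 CPM in Sora-Treg libraries. For Mki67 all 3 Sora-Treg libraries lay below the ctrl-Treg libraries, at a log2 fold change of -0.68 ± 0.03 (SE, adjusted p = 2.14e-14). Cdca2, which directs a phosphatase to anaphase chromatin, was at 34.6, 34.2 and 35.9 CPM in ctrl-Treg and at 21.01, 21.3 and 19.3 CPM in Sora-Treg libraries, with a log2 fold change of -0.77 ± 0.06 (SE, adjusted p = 3.21e-10). Ncapd2, a condensin I subunit, was at 213, 210.2 and 205 CPM in ctrl-Treg and at 127, 126 and 131 CPM in Sora-Treg libraries. No Sora-Treg library reached the Ncapd2 level of a ctrl-Treg library, and the log2 fold change was -0.71 ± 0.03 (SE, adjusted p = 7.27e-15).

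Condensin subunits ranged from the second smallest change of the 55 genes to falls near the median. The log2 fold change was -0.51 ± 0.04 for Ncaph and -0.43 ± 0.06 for Ncapg, the other condensin I subunits, and -0.68 ± 0.04 for Smc2, one of the 2 ATPase arms. Smc4, the other arm, was at 274, 282 and 286 CPM in ctrl-Treg and at 232, 268 and 234 CPM in Sora-Treg libraries. Sora-Treg 2 stood nearer to the ctrl-Treg libraries than the other Sora-Treg libraries did, and the log2 fold change of Smc4 was -0.20 ± 0.04 (SE, adjusted p = 0.000224), the smallest fall among the 54 genes called lower. The FPKM ratio of Smc4 to Smc2 was 2.31 ± 0.0516 (SD, n = 3) in ctrl-Treg cells against 3.22 ± 0.227 in Sora-Treg cells, without overlap between the libraries. This ratio too was computed after the unequal falls of Smc4 and Smc2 had been seen. Cdca3, a trigger of WEE1 turnover at mitotic entry and the single member outside these roles, was at 32.4, 28.5 and 30.4 CPM in ctrl-Treg and at 20.1, 17.7 and 19.96 CPM in Sora-Treg libraries, with a log2 fold change of -0.66 ± 0.07 (SE, adjusted p = 3.2e-08).

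**Figure D3:**
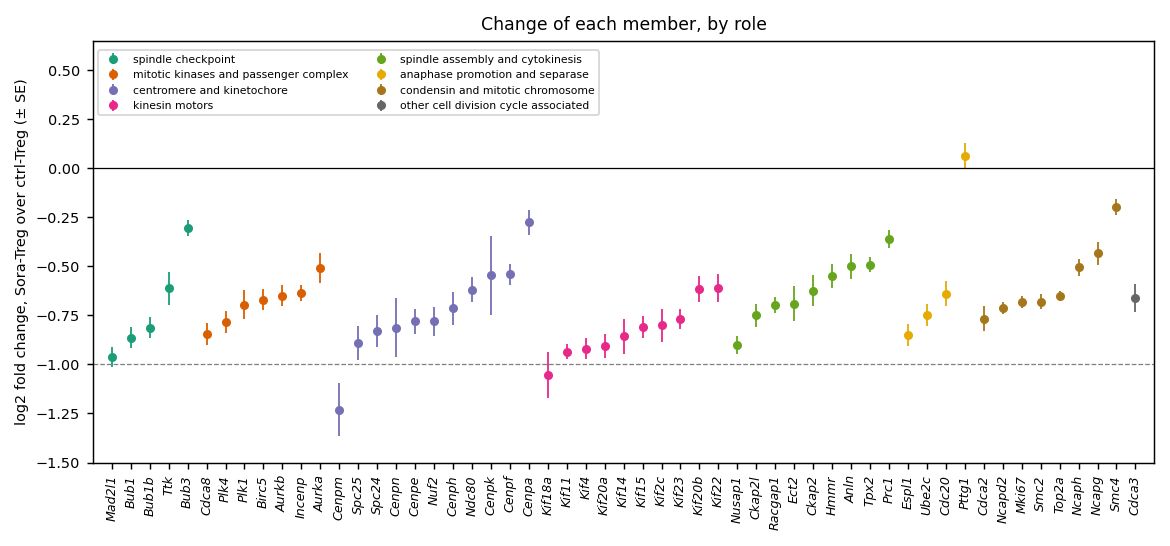
Log2 fold change (Sora-Treg over ctrl-Treg) of each of the 55 genes, grouped and coloured by role, with bars of ± 1 SE from the edgeR fit. The solid line marks no change and the dashed line a 2-fold fall. Cenpm and Kif18a lie below the dashed line, Pttg1 lies at 0.06, and the other genes lie between.

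Replicates were close in these genes. The larger of the 2 group coefficients of variation of a gene ran from 1.32% to 30.3% with a median of 6.2% over the 55 genes, and the highest was that of Cenpn in Sora-Treg cells. The biological coefficient of variation over all tested genes was 4.29%. Exons of 10 members (Cdc20, Cdca8, Cenpk, Kif18a, Kif20a, Kif4, Ncapg, Nusap1, Prc1 and Ube2c) overlap a gene on the other strand by 11 to 1271 bases, and without the strand setting reads of such pairs cannot be told apart. The same holds for Cenpt, Kif2a, Ncaph2, Rhoa, Rbbp4, Rbl2, Lin37, Cdc45 and Rfc5, which are named next, and Foxm1 shares 144 exonic bases with Tex52 on its own strand.

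Other genes of mitosis, listed from general knowledge, changed less evenly. Of 110 tested, 72 were called lower, 11 higher and 27 were not called, with a median log2 fold change of -0.33. Over all tested genes 29.9% were lower and 29.7% higher. Of the entry kinases and cyclins 12 of 13 were lower, with a median of -0.61. Of further checkpoint and kinetochore genes 24 of 32 were lower, 2 were higher and 6 were not called, with a median of -0.61 and a range up to 0.50. Cytokinesis genes had a median of -0.70, with 5 of 7 lower. Cohesin genes had a median of -0.0097 with 4 of 11 (36.4%) lower, near the share over all tested genes, and 2 higher, and the core anaphase-promoting complex and its partners a median of -0.14 with 8 of 17 lower and 4 higher. No test of the difference between these lists and the 55 genes was made.

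Of the 110 other mitosis genes 5 passed the 2-fold limit, all of them lower. That is near the share over all tested genes, of which 4.97% passed it in that direction. Among the 5, Gtse1, a microtubule plus end protein, fell by 1.41 ± 0.04 on the log2 scale (SE, adjusted p = 1.69e-18). Its level was 111, 112 and 109 CPM in ctrl-Treg and 42.2, 40.8 and 42.0 CPM in Sora-Treg cells. The others were the kinetochore genes Ska1 (-1.21 ± 0.13, SE) and Cenps (-1.10 ± 0.16, SE), the cytokinesis gene Depdc1b (-1.16 ± 0.13, SE) and the motor gene Kif18b (-1.01 ± 0.07, SE). Of the 11 called higher, Cenpt, a link between centromere chromatin and the NDC80 complex, was at 22.4, 22.8 and 22.5 CPM in ctrl-Treg and 30.9, 32.9 and 31.8 CPM in Sora-Treg cells, a log2 fold change of 0.50 ± 0.06 (SE, adjusted p = 2.36e-07). Kif2a, a microtubule depolymerase, rose by 0.32 ± 0.04, Ncaph2, a condensin II subunit, by 0.31 ± 0.03, and Anapc2, the cullin of the anaphase-promoting complex, by 0.28 ± 0.04 (SE). These 4 were called higher under each of 17 alternative settings, and with libraries scaled by their totals alone they were the 4 still called. The other 7 were Stag1 and Stag2 of cohesin, Anapc4, Anapc16 and Cdc27 of the anaphase-promoting complex, Hjurp, the chaperone of CENP-A, and Rhoa, with log2 fold changes from 0.10 to 0.20. Under scaling by totals alone none of these 7 was called, and Anapc16, Rhoa and Stag2 had negative log2 fold changes.

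Among factors that control mitotic transcription, the activators Foxm1 and Mybl2 had the largest changes. Of 16 listed and tested, 9 were lower and 0 higher, where 29.9% of all tested genes were lower and 29.7% higher. The median log2 fold change of the 16 was -0.18. Foxm1, the forkhead activator of mitotic genes, was at 65.8, 64.5 and 62.9 CPM in ctrl-Treg and 36.6, 36.0 and 34.99 CPM in Sora-Treg cells, a log2 fold change of -0.85 ± 0.05 (SE, adjusted p = 2.17e-13). Mybl2, the B-MYB partner of the MuvB core, was at 28.2, 24.6 and 27.7 CPM in ctrl-Treg and 15.6, 12.9 and 15.3 CPM in Sora-Treg cells, a log2 fold change of -0.88 ± 0.08 (SE, adjusted p = 2.97e-09). Both groups of libraries stood clear of each other in both genes. Tfdp1, the dimer partner of E2F factors, fell by 0.65 ± 0.03, Rbl1 (p107) by 0.46 ± 0.04 and Lin9 of the MuvB core by 0.46 ± 0.09 on the log2 scale (SE). Rbbp4 and the 3 NF-Y subunits fell less, by 0.25 ± 0.04 (SE) for Nfyb and by 0.14 to 0.19 for Rbbp4, Nfya and Nfyc. The call on Nfyc was lost without ctrl-Treg 3 (log2 fold change of -0.13) or without Sora-Treg 2 (-0.14). Rbl2 (p130), E2f4, E2f5, Tfdp2, Lin37, Lin52 and Lin54 were not called, with log2 fold changes from -0.22 to 0.15. The sign of E2f4, Tfdp2 and Lin37 turned under scaling by totals alone, and E2f4, Lin52, Lin54 and Rbl2 were then called lower.

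DNA replication genes, which precede mitosis in the cycle, were lower as well. Of 50 tested, 49 were called lower and 0 higher, where 29.9% of all tested genes were lower and 29.7% higher. The median log2 fold change of the 50 was -0.54. The largest falls were those of Tyms (-1.16 ± 0.06, SE), which makes thymidylate, Mcm10 (-1.12 ± 0.06) and Cdc45 (-1.04 ± 0.06), which activate the helicase, and Rfc5 (-0.83 ± 0.06), a clamp loader subunit. The share of counts held by replication genes was 0.384% ± 0.0037 without Sora and 0.254% ± 0.000924 with Sora, against 0.393% ± 0.00528 and 0.234% ± 0.00154 for the 55 mitotic genes (SD, n = 3). Whether the lists differ in their fall was not tested.

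**Figure D4:**
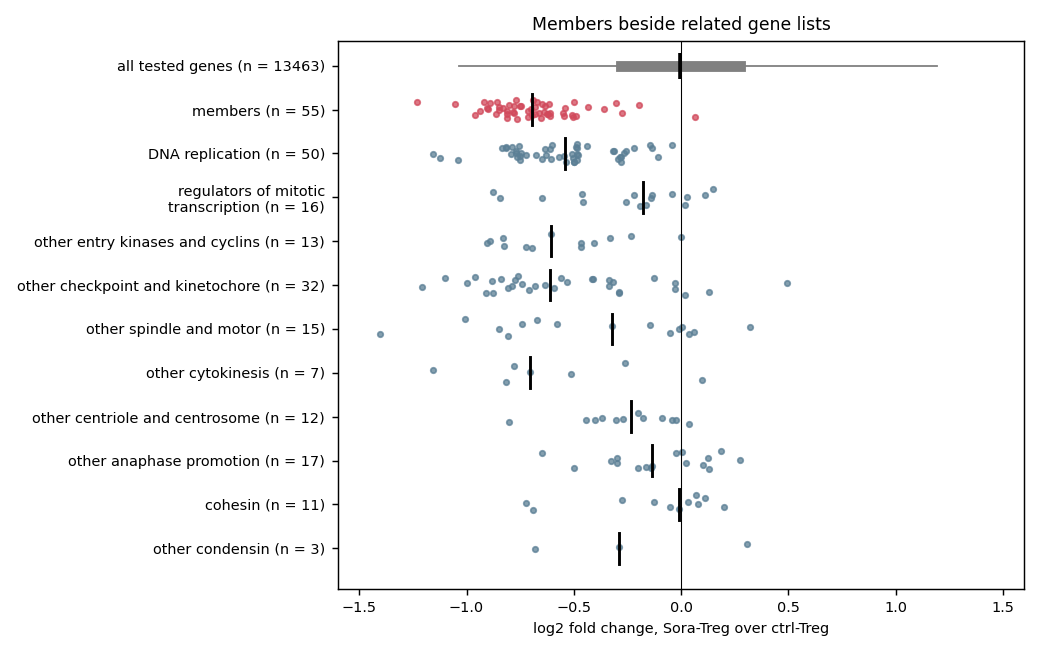
Log2 fold change (Sora-Treg over ctrl-Treg) of the 55 genes (red), of the related gene lists (blue, 1 point per gene) and of all tested genes (grey bar from the 25th to the 75th percentile with whiskers from the 5th to the 95th). Black ticks mark the medians, at -0.70 for the 55 genes, -0.54 for DNA replication and -0.0097 for cohesin.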

How the data were processed

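RNA of 6 mouse libraries, 3 ctrl-Treg and 3 Sora-Treg, was analysed, and groups were read from the sample titles. Both tables deposited by the authors, raw counts and FPKM, list genes by symbol with 1 column per library. The deposited FPKM equalled the count divided by 1 length per gene and the library total (largest relative spread of the implied length 1.64e-06). The sources disagree on the alignment: the methods of the study give GRCm38 and Bowtie2, and the submitters' processing notes give GRCm39, fastp, HISAT2, HTSeq, DESeq2 and R 3.2.0. The annotation and the strand setting are not given in the sources used here, so reads of genes with exons on both strands cannot be told apart.

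Counts were tested by quasi-likelihood with edgeR 4.0.16 under R 4.3.3 (TMM scaling, filterByExpr, no covariate, Benjamini-Hochberg adjustment over 13463 genes). A first run on simulated data used changes of 2-fold or more. It therefore does not cover the smaller falls of most members. The SE is the one the F statistic implies. At this depth 3 counts correspond to 0.0795 to 0.0976 per 1000000 counts of the unscaled library total, which covers counting error only. As alternatives, scaling was by RLE, by upper quartile or by library total, and 2 other filters, robust fitting, DESeq2 1.42.0, limma 3.58.1 on log2(FPKM + 1) and log2(FPKM + 0.1), the replicate number as a block, and the omission of each library were run. Deviations from the group means correlated by -0.0311, 0.0813 and 0.0430 between same-numbered libraries, so no strong effect shared by a replicate number was seen. Such low correlations cannot show whether same-numbered libraries had a common origin. Counts of libraries within a group differed by more than sampling noise (chi-square per degree of freedom of 3.47 to 6.26). Nothing says whether libraries came from separate cultures or animals, so p-values measure the spread between these samples.

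The members and lists were chosen with earlier results of these data known. Values in each library were given for the 2 largest changes of each role, for genes not called lower, and for Mki67, Aurkb, Plk1, Bub1, Ndc80, Cdc20 and Top2a. Those of Bub3, Aurka, Cenpa, Cenpk, Cenpn, Prc1 and Smc4, the partner ratios and the promoters of Top2a, Ube2c and Pttg1 were added after values were seen. Of other lists, the 4 largest changes, all regulators and genes called opposite to most of a list were named, and Kif18b was added to complete a count. Promoters were RefSeq windows on GRCm38.p6, 1 per gene at the most upstream listed start. Kif20a, Aurkb, Cdca2, Spc24, Tpx2, Incenp and Smc4 had no window, and Ncr1 was not analysed here.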

Additional observations from a re-analysis of the deposited data

How the results depend on the processing

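Of the 55 members, 53 had the same direction and call in each of 17 alternatives, and the exceptions were Cenpk and Pttg1. Among the 16 regulators this held for 9. The count of members called lower was 53 or 54 throughout. With the replicate block it was 54, with a median log2 fold change of -0.698, and the block changed no call of a member. The count past the 2-fold limit rested on the setting, with 2 under TMM, 8 with libraries scaled by their totals alone, 7 on log2(FPKM + 0.1) and 1 on log2(FPKM + 1), with or without the filter. The 8 were Cenpm, Kif18a, Mad2l1, Kif11, Kif4, Kif20a, Nusap1 and Spc25, and the single gene on log2(FPKM + 1) was Mad2l1, since the pseudocount shrinks the change of low genes such as Cenpm and Kif18a. Leaving out a library gave 2 or 3, the 3 without Sora-Treg 2, when Cenpn also passed. The median of the members was -0.811 with library totals alone and -0.805 on log2(FPKM + 0.1). Among the other mitosis genes, the 11 called higher became 7 under upper quartile scaling and 4 with library totals alone and in each of the 3 limma fits. Cenpk was not called on log2(FPKM + 1) without the filter (-0.364), and without ctrl-Treg 1 (-0.375), ctrl-Treg 2 (-0.535) or Sora-Treg 3 (-0.418). Nfyc was not called without ctrl-Treg 3 (-0.125) or Sora-Treg 2 (-0.139).

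The direction of 4 genes that were not called turned. Pttg1 was at -0.0522 with library totals alone, -0.0466 on log2(FPKM + 1) with or without the filter, and -0.0511 on log2(FPKM + 0.1). Under the same settings Lin37 was at -0.00265, -0.000732 and -0.000818, E2f4 at -0.0878, -0.0867 and -0.0881, and Tfdp2 at -0.0991, -0.0827 and -0.0985. E2f4 was then called lower in each of these fits. Upper quartile scaling gave -0.0103 for E2f4 and -0.0216 for Tfdp2. Leaving out a library gave Tfdp2 values from -0.0347 to 0.0703. The median of all tested genes was -0.119 with library totals alone and -0.0413 under upper quartile scaling. The cause of these turns was not tested.

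Depth limits single members with few counts, above all Cenpk, and 6 libraries of sorted cells hold no measure of how many cells were in mitosis.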
